A study of Mus musculus with 23 samples.

Results

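Primary mammary tumours of mice treated with Anakinra (A) were set against those of mice treated with doxorubicin and zoledronic acid (DZ), gene by gene, on an immune profiling panel. The comparison took 11 of the 23 tumours profiled, 5 A tumours and 6 DZ tumours, and all 770 genes of the panel. Genes were divided by the background of the tumours, that is the mean plus 2 SD of the negative control probes: 633 genes lay above it and 137 lay at or below it. All tumours grew from E0771 luc2 GFP, a murine breast carcinoma line engineered with luciferase and GFP reporters, in C57BL/6J female mice that were 6 to 8 weeks old when the cells were placed in the mammary ducts, so the host had an intact immune system. The A mice received Anakinra at 1 mg/kg each day. The DZ mice received doxorubicin at 2 mg/kg each week and, 24 h after it, zoledronic acid at 100 µg/kg each week. The 6 placebo tumours (P), set beside both treatments at the end, came from mice given the placebo of Anakinra. Treatment began on day 9 and the mice were culled on day 23. Each A and DZ tumour came from a different animal, so that p-values for A minus DZ measure the spread between animals.

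Anakinra is a recombinant form of the natural antagonist of the IL-1 receptor. It occupies the receptor without signalling, and so keeps IL-1α and IL-1β from starting the MyD88 and NF-kB relay that induces cytokines such as IL-6, the enzyme COX-2 (Ptgs2) and adhesion molecules that bring leucocytes into a tissue. Doxorubicin intercalates into DNA and blocks topoisomerase II, and zoledronic acid is a bisphosphonate that inhibits the mevalonate pathway in osteoclasts and in other phagocytes. The comparison places blockade of a cytokine receptor beside chemotherapy with an anti-resorptive drug.

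The promoters of Il6 and Tnfrsf9, 2 of the genes described below, are shown first because they hold a motif of NF-kB, the factor at the end of that relay. The 250 bases ahead of the annotated start are printed 5′ to 3′ from RefSeq (GRCm38.p6), with capitals marking the match to GGNNTTTCC, an NF-kB type motif that was searched on both strands. Il6 lies on the + strand of chromosome 5 (chr5:30012864-30013113) with the match starting 43 bases before the start, and the second annotated start of Tnfrsf9 lies on the + strand of chromosome 4 (chr4:150927749-150927998) with the match 42 bases before it.
Il6: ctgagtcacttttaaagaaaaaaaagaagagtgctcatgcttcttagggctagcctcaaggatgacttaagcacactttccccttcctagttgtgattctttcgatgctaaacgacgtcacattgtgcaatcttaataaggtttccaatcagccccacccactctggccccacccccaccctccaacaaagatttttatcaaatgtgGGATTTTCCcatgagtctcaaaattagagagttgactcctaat
Tnfrsf9: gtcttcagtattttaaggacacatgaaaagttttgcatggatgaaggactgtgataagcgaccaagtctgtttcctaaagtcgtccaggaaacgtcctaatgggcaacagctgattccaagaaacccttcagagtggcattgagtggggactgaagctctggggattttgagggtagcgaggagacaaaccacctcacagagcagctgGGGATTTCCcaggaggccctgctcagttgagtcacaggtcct
Over windows of 300 bases, from 250 before to 50 after a start, the motif was in 6.62% of 27025 genes, in 14.1% of the 569 panel genes with a window and in 8 of the 12 IL-1 and NF-kB induced genes with a window (Ccl20, Csf2, Cxcl1, Cxcl2, Cxcl3, Icam1, Il6 and Tnfaip3). Of the 21 genes above background with the smallest p for A and DZ, 14 had a window and 2 held the motif, a share of 14.3% that is close to that of the panel. A gene was counted if any of its windows held a match, and no window of Tnfrsf9 other than the printed start held a match. A match describes the letters of the window and is not a measured binding site.

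The deposited values are log2 counts of barcoded probes, multiplied by 1 normalization factor per tumour that equalises the 20 reference genes. Total gene counts ran from 904781 to 1669712 in the A tumours and from 882537 to 1674738 in the DZ tumours, and the factor ran from 0.783 to 1.32 in A and from 0.759 to 1.57 in DZ. The tumours fell into shallow libraries with a factor over 1 (2 A and 4 DZ tumours) and deep libraries with a factor under 1 (3 A and 2 DZ tumours). The labels name no batch, and these classes, set after the values were seen, are used below to give some of the differences within libraries of like depth. The text gives the other differences over all 11 tumours only. The number of genes above the background of their own tumour was 635.6 ± 7.37 in A (SD, n = 5) and 635 ± 24.1 in DZ (SD, n = 6), a difference of 0.6 genes (exact two-sided permutation test, p = 0.981). Of the 770 genes, 559 were above background in all 11 tumours and 67 in none. Pearson correlations between the 11 tumours over the panel ran from 0.933 to 0.99. Of the 5 panel genes that mark carcinoma epithelium (Cdh1, Epcam, Itgb4, Itga6 and Muc1), 5 lay above background.

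No gene differed between A and DZ tumours after adjustment, and the largest differences were genes that were lower in A. Among them were genes of leucocyte homing, genes of blood vessels and the IL-1 induced cytokine gene Il6. With limma and Benjamini-Hochberg adjustment, 0 of the 770 genes passed an adjusted p of 0.05 (0%), and the smallest adjusted p was 0.347. At an unadjusted p under 0.05, limma counted 33 genes, of which 32 were lower in A (4.16% of 770 genes) and 1 was higher in A (0.13%). The same count was 66 without DZ2 and 51 without DZ5. Above background, 21 of 633 genes were lower in A at that level (3.32%) and 0 were higher (0%), and at or below background 11 of 137 were lower (8.03%) and 1 was higher (0.73%). A gene was classed by its mean height over background across the 11 tumours of both groups. A gene low in A could therefore pass through its DZ values. Cd1d2, Ccl21a and Runx3, counted among the 21, lay above background in few A tumours, as given below. Among the 633 genes above background, 2 were lower in A by 2-fold or more and 0 were higher. These 2 were Ccl21a and Serpinb2, a plasminogen activator inhibitor of monocytes (log2 difference −1.19, adjusted p = 0.995), the second named after its value was seen.

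Most genes stood slightly lower in A on the deposited scale. Of all 770 genes, 575 were lower in A (74.7%) and 195 higher (25.3%). Of the 633 genes above background, 467 were lower in A (73.8%) and 166 higher (26.2%), with a median log2 difference of −0.107. The median level of these genes was 8.96 ± 0.17 in A tumours and 9.06 ± 0.18 in DZ tumours (log2, SD, n = 5 and 6), and the difference of −0.11 was within the spread between tumours (exact two-sided permutation test, p = 0.323). The shift differed between the 2 classes of libraries. Within the tumours with a factor over 1, the median difference was −0.316 and 77.6% of the genes above background were lower in A, while within those with a factor under 1 it was 0.0708 and 35.9% were lower. After each tumour was recentred on the median of its genes above background, the median difference was 0.003 and 49.3% of genes were lower in A. The counts of lower genes in the lists and marker sets below stand against this 73.8%, and their counts at an unadjusted p under 0.05 against 3.32%.

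**Figure D1:**
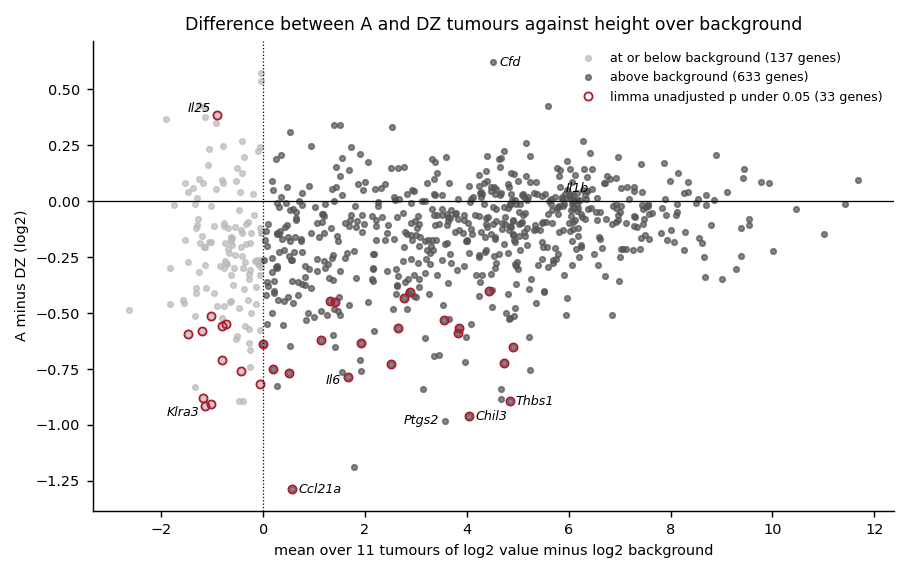
Difference between A and DZ tumours (A minus DZ, log2, vertical axis) for each of the 770 genes against its mean height over the background of the 11 tumours (log2, horizontal axis). Of the 33 genes circled for a limma unadjusted p under 0.05, 32 lie under the zero line and 12 lie left of the dotted line, at or below background.

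Genes that let leucocytes enter and leave tissues were the first group. In these bulk samples, fewer cells of a type and less RNA per cell cannot be told apart. Over all 770 genes, 5 had every A tumour under every DZ tumour (0.649%) and 0 had every A tumour above (0%), and among the 633 genes above background these counts were 1 (0.158%) and 0 (0%).

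Of the homing genes, the chemokine receptors stood lower in A, without passing the adjusted threshold. Ccr1, a receptor for CCL3 and CCL5 on monocytes and neutrophils, stood at 8.87, 8.98, 8.73, 9.23 and 9.01 in A1 to A5 and at 9.09 to 9.65 in DZ (median 9.35), a difference of −0.40 ± 0.15 (standard error; limma adjusted p = 0.923). Only A4 and the 2 lowest DZ tumours overlapped. Cxcr4, the receptor for CXCL12 that retains cells in marrow and stroma, stood at 7.79, 8.19, 7.98, 8.32 and 7.81 in A and at 7.99 to 8.96 in DZ (median 8.60), a difference of −0.53 ± 0.21 (adjusted p = 0.978). The 4 highest DZ tumours were those with a factor over 1, and within the tumours with a factor under 1 the difference was −0.15. Ccr7, which guides dendritic cells and lymphocytes to lymph nodes, differed by −0.40 ± 0.18 (adjusted p = 0.995), but by −0.80 in the tumours with a factor over 1 and by 0.06 in those with a factor under 1. Amica1, now named Jaml, a junctional adhesion molecule of migrating leucocytes, was 7.07 to 7.44 in A and 7.34 to 8.02 in DZ (difference −0.43 ± 0.16, adjusted p = 0.923). Of the 13 chemokine receptors above background, 12 were lower in A (against 73.8% of all genes above background), 3 of them at an unadjusted p under 0.05 (against 3.32%) and 0 after adjustment, with a median of −0.29 on the deposited scale and −0.18 after recentring. In the tumours with a factor over 1, the mean level of the 13 was 7.02 and 7.23 in A against 7.55 to 7.76 in DZ. In those with a factor under 1 it was 6.61, 7.32 and 7.44 in A against 6.81 and 7.05 in DZ. Of the 27 chemokines above background, 18 were lower (66.7%), and their median of −0.12 became −0.01 after recentring and 0.01 after quantile normalization.

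Ccl21a, the lymph node chemokine that binds CCR7, had the largest difference above background, −1.29 ± 0.55 (limma adjusted p = 0.995). Its level was 4.73, 4.14, 4.62, 5.57 and 4.03 in A1 to A5, and 4.56 to 7.46 with a median of 5.45 in DZ. DZ4 and DZ6 stood apart at 7.46 each, and only 2 of the 5 A tumours but 6 of the 6 DZ tumours were above their own background. Of the 8 panel genes of lymph node stroma and follicles, 2 lay above background (Ccl19 and Ccl21a), and their mean level ran from 4.42 to 5.57 in A tumours and from 4.12 to 7.33 in DZ tumours, with Cxcl13, Cxcr5, Cr2, Ms4a1 and Glycam1 among those at or below it. The part of lymph node tissue in the Ccl21a difference was not tested. The leucocyte gene Ptprc (CD45) ran from 9.13 to 10.99 in A and from 9.34 to 10.79 in DZ, with a difference of −0.35 ± 0.39 (adjusted p = 0.995) that was −1.31 in the tumours with a factor over 1 and 0.73 in those with a factor under 1.

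**Figure D2:**
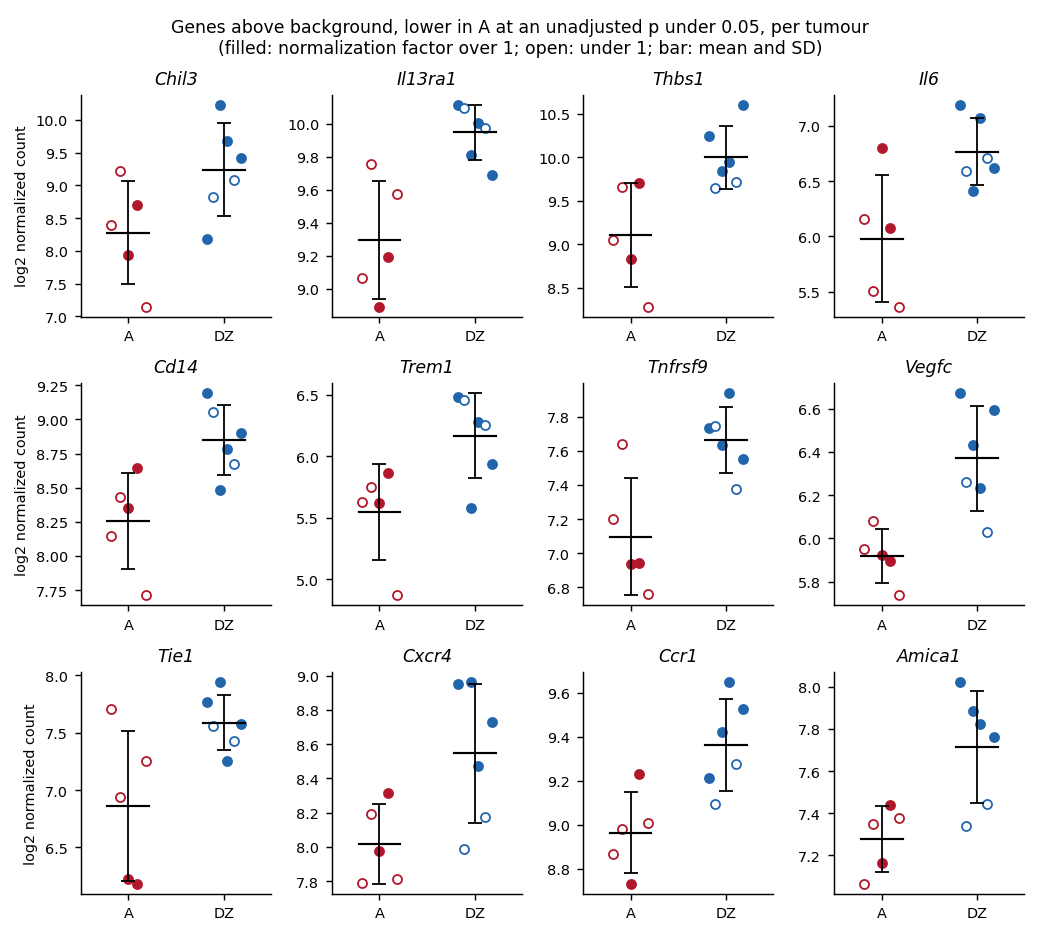
Level of 12 genes above background (log2 normalized count) in each A and DZ tumour, with the mean and SD as bars and filled points for tumours with a normalization factor over 1. The A mean lies under the DZ mean in all 12 panels, and the groups overlap in each.

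Genes of the inflammatory response downstream of IL-1 and of toll-like receptors gave differences of unequal size. Il6 stood at 6.16, 5.51, 6.80, 6.08 and 5.37 in A1 to A5, and at 6.41 to 7.19 in DZ with a median of 6.66. A3 lay inside the DZ range and the other 4 A tumours lay under it. The difference was −0.78 ± 0.26, or 1.72-fold higher in DZ (limma adjusted p = 0.743, exact permutation p = 0.0195), and it was −0.38 in the tumours with a factor over 1 and −0.98 in those with a factor under 1. Cd14, the co-receptor that hands lipopolysaccharide to TLR4, was 7.71 to 8.64 in A and 8.48 to 9.19 in DZ, a difference of −0.59 ± 0.19 (adjusted p = 0.743). Trem1, which amplifies toll-like receptor signals on neutrophils and monocytes, was 5.62, 5.75, 5.62, 5.86 and 4.87 in A1 to A5 and 5.58 to 6.48 in DZ (difference −0.62 ± 0.22, adjusted p = 0.923), and A5 lay well under the other A tumours.

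Thbs1 and Il13ra1 had differences of similar size. Thbs1, thrombospondin 1, a matrix protein that activates TGF-β and restrains vessel growth, was 9.04, 9.66, 8.83, 9.70 and 8.28 in A and 9.65 to 10.60 in DZ with a median of 9.89. The ranges overlapped by A2, A4 and the lowest DZ tumour, and the difference was −0.89 ± 0.28, or 1.86-fold higher in DZ (limma adjusted p = 0.743, exact permutation p = 0.00649). Il13ra1, a chain of the receptor for IL-4 and IL-13, was 9.06, 9.76, 8.89, 9.19 and 9.57 in A and 9.69 to 10.11 in DZ with a median of 9.99, with a difference of −0.65 ± 0.18 (adjusted p = 0.511, exact permutation p = 0.00433). Only A2 reached into the DZ range. Chil3, the chitinase-like protein Ym1 that IL-4 and IL-13 induce in mouse macrophages, differed by −0.96 ± 0.41 (adjusted p = 0.995), with A tumours at 7.15 to 9.22 and DZ tumours at 8.18 to 10.23. Tnfrsf9, the costimulatory receptor 4-1BB, was 6.76 to 7.64 in A and 7.38 to 7.94 in DZ (difference −0.57 ± 0.18, adjusted p = 0.743), and A2 was the A tumour inside the DZ range.

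As a list, the 16 IL-1 and NF-kB induced cytokines and enzymes above background had 13 members lower in A (81.3%, against 73.8%), 1 at an unadjusted p under 0.05 (Il6) and 0 after adjustment. Their median was −0.26 on the deposited scale, −0.15 after recentring and −0.08 in counts without the factor. In the tumours with a factor over 1, the mean level of the 16 was 8.21 and 8.38 in A against 7.92 to 8.47 in DZ. In those with a factor under 1 it was 8.00, 8.11 and 7.50 in A against 8.51 and 8.52 in DZ. Ptgs2, the inducible cyclooxygenase, was 6.44 to 8.40 in A and 7.77 to 10.31 in DZ (difference −0.98 ± 0.45, limma adjusted p = 0.995), and DZ1 was the highest. The neutrophil chemokine Cxcl1 differed by −0.10 ± 0.40, the macrophage chemokine Ccl2 by −0.12 ± 0.21, Icam1 by −0.01 ± 0.18 and Tnf by 0.08 ± 0.20, each with an adjusted p of 0.995. The sign for Cxcl1 and Ccl2 turned under some scalings, with 0.01 for Cxcl1 after recentring and 0.06 for Ccl2 without the factor. All 14 toll-like receptor genes with CD14 were lower in A, 1 of them (Cd14) at an unadjusted p under 0.05. Their median of −0.22 became −0.11 after recentring, when 10 of 14 were lower. Among the tumours with a factor over 1, their mean level was 7.33 and 7.50 in A against 7.75 to 8.20 in DZ. Among those with a factor under 1, it was 7.36, 7.68 and 7.91 in A against 7.30 and 7.53 in DZ.

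The IL-1 system itself gave small differences. Il1b, which encodes IL-1β, was 10.78, 11.41, 10.69, 11.14 and 10.57 in A1 to A5 and 10.34 to 11.67 in DZ with a median of 10.85, and the difference was 0.01 ± 0.28 (limma adjusted p = 0.996). Every A tumour lay inside the DZ range. Il1rn, the mouse gene for the natural antagonist and not a measure of the drug, was 10.81 to 11.40 in A with a median of 11.30 and 10.43 to 11.56 in DZ with a median of 10.81 (difference 0.27 ± 0.24, adjusted p = 0.995). It was 0.41 in the tumours with a factor over 1 and 0.00 in those with a factor under 1. The signalling receptor Il1r1 differed by −0.15 ± 0.19, the decoy receptor Il1r2 by −0.01 ± 0.23, the accessory chain Il1rap by −0.11 ± 0.19 and Il1a by 0.34 ± 0.34 (adjusted p = 0.995 for each). For these 11 ligands, receptors and inhibitors the median was −0.11, which became 0.00 after recentring and 0.07 after quantile normalization, with 7 of 11 lower in A. For the 21 genes of the inflammasome and the IL-1 relay, from Nlrp3 and Casp1 to Myd88, Irak4 and Rela, the median was 0.00 and 10 were lower, with none at an unadjusted p under 0.05 by limma and 0 after adjustment.

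Blood vessel genes had the lowest median of the 22 lists set by function. Tie1, an endothelial receptor tyrosine kinase, was 7.70, 6.94, 6.23, 6.18 and 7.25 in A1 to A5 and 7.26 to 7.94 in DZ with a median of 7.57. A3 and A4 were the lowest of the 11 tumours and A1 lay inside the DZ range, and the difference of −0.73 ± 0.27 (limma adjusted p = 0.923) was −1.43 in the tumours with a factor over 1, to which A3 and A4 belong, and −0.20 in those with a factor under 1. Cd34, a sialomucin of endothelial and progenitor cells, showed the same split, with −0.57 ± 0.26 over all tumours, −1.18 with a factor over 1 and −0.06 with a factor under 1. Vwf, the platelet adhesion factor of endothelium, differed by −0.63 ± 0.27, with −1.02 and −0.46 in the 2 classes (adjusted p = 0.995 for Cd34 and Vwf). Vegfc, a growth factor of lymphatic vessels, varied little within A, at 5.95, 6.08, 5.92, 5.89 and 5.74 against 6.03 to 6.67 in DZ (median 6.35), and differed by −0.45 ± 0.15 (adjusted p = 0.743, exact permutation p = 0.00649). A2 alone crossed the lowest DZ tumour.

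All 13 endothelial and angiogenesis genes above background were lower in A (against 73.8%), 4 of them (Tie1, Vwf, Cd34 and Vegfc) at an unadjusted p under 0.05 (against 3.32%) and 0 after adjustment. The median was −0.47 on the deposited scale, −0.37 after recentring (12 of 13 lower), −0.30 after quantile normalization and −0.30 without the factor. Among the tumours with a factor over 1, the mean level of the 13 was 7.61 and 7.74 in A (A3 and A4) against 8.23 to 8.80 in DZ. Among those with a factor under 1, it was 8.48, 8.15 and 8.35 in A against 8.51 and 8.37 in DZ. The difference of this list thus lay mostly in the tumours with a factor over 1. Of the marker genes of vessel endothelium, 6 of 6 above background were lower, with a mean level of 6.80 to 7.87 in A tumours and of 7.48 to 8.29 in DZ tumours. Pecam1, Kdr and Tek differed by −0.47 ± 0.30, −0.41 ± 0.21 and −0.53 ± 0.29, but within the tumours with a factor under 1 by 0.01, 0.06 and 0.04. Tgfb2, the TGF-β isoform of stroma and epithelium, was 5.60 to 6.18 in A and 5.92 to 6.88 in DZ (difference −0.44 ± 0.19, adjusted p = 0.995), whereas the 8 TGF-β ligands, receptors and SMADs had a median of −0.06 that became 0.05 after recentring. Of the 10 fibroblast and matrix genes, 9 were lower in A, with a median of −0.35 (−0.24 after recentring), 1 at an unadjusted p under 0.05 (Thbs1) and 0 after adjustment. In the tumours with a factor over 1, the mean level of these 10 was 9.10 and 9.66 in A against 9.71 to 10.58 in DZ. In those with a factor under 1 it was 9.53, 9.45 and 9.88 in A against 9.05 and 9.67 in DZ.

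**Figure D3:**
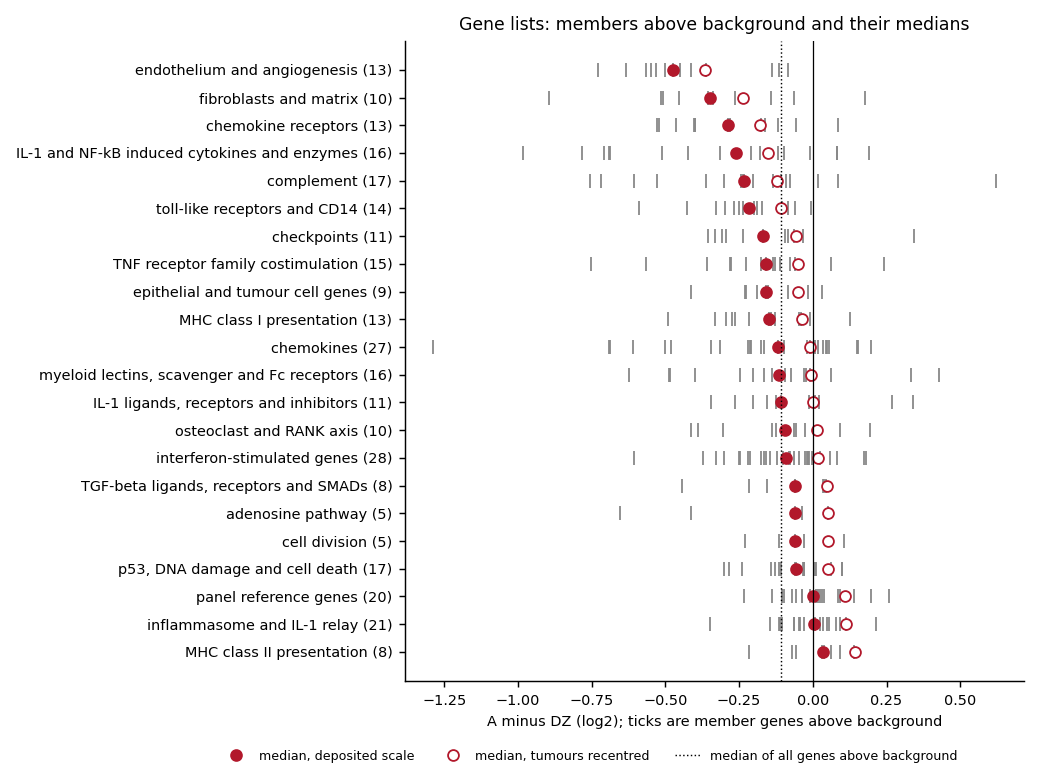
Differences of A minus DZ (log2, horizontal axis) for the member genes above background of 22 lists (ticks), with the list median on the deposited scale (filled) and after recentring (open) and the number of genes in parentheses. Endothelium and angiogenesis has the lowest median, −0.47, and the reference genes and the IL-1 relay lie at 0.00.

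The remaining genes of the panel with an unadjusted p under 0.05 above background belonged to the CD1d family or to lymphocyte regulation. Cd1d2 has a near-identical copy in Cd1d1, so that probe signal may be shared. Cd1d2 differed by −0.64 ± 0.25 (limma adjusted p = 0.978), and Cd1d1 by −0.45 ± 0.22. For Cd1d2, only A5 of the A tumours lay above its own background (4.59 against 4.51). Of the DZ tumours, only DZ4 lay under its own (4.98 against 5.35). Runx3, a transcription factor of cytotoxic lymphocytes, differed by −0.77 ± 0.35 (adjusted p = 0.995), with 2 of 5 A tumours and 5 of 6 DZ tumours above background. Cd70, the ligand of CD27, differed by −0.75 ± 0.34 (adjusted p = 0.995), with −1.07 in the tumours with a factor over 1 and 0.05 in those with a factor under 1. For Cd70, A3, A5 and DZ4 lay under their own background.

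T cell and cytotoxic genes did not share a direction over all 11 tumours. The 5 T cell markers above background had 3 members lower in A and a median of −0.00, which was 0.11 after recentring. Their mean level ran from 5.44 to 6.99 in A and from 5.76 to 7.01 in DZ. With a factor over 1 this level was 6.17 and 6.33 in A against 6.23 to 7.01 in DZ. With a factor under 1 it was 5.44, 6.99 and 6.90 in A against 5.95 and 5.76 in DZ. The 6 cytotoxic markers above background stood at 6.98 and 7.30 in A against 7.53 to 7.73 in DZ with a factor over 1. With a factor under 1 they stood at 6.28, 7.96 and 8.10 in A against 6.80 and 6.89 in DZ. Cd8a differed by 0.15 ± 0.36, the effector protease gene Gzmb by 0.06 ± 0.30 and Foxp3, the regulator of Treg cells, by −0.18 ± 0.31 (limma adjusted p = 0.995 each). Of the 7 B cell markers, only Cd79b lay above background. The 6 macrophage markers had 5 members lower in A (median −0.36, −0.25 after recentring), and the 4 neutrophil markers 4 (median −0.45, −0.34 after recentring), with mean levels of 7.77 to 8.94 in A and 8.51 to 8.87 in DZ. In the tumours with a factor over 1, the mean level of the macrophage markers was 9.19 and 9.64 in A against 9.74 to 10.82 in DZ. In those with a factor under 1 it was 9.25, 9.30 and 9.93 in A against 8.34 and 9.54 in DZ. Within the 2 classes of libraries these 4 neutrophil markers did not share a direction. S100a8 differed by 0.63 in the tumours with a factor over 1 and by −1.57 in those with a factor under 1, and Cxcr2 by 0.47 and −1.31. Fpr2 ran the other way, at −0.49 and 0.44, and Csf3r was lower in A in both classes, at −0.35 and −0.25.

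Interferon-stimulated genes and antigen presentation gave small differences too. Of 28 interferon-stimulated genes above background, 23 were lower in A (82.1%, against 73.8%), but their median of −0.09 turned to 0.02 after recentring, when 13 of 28 were lower. Of 13 genes of MHC class I presentation, 12 were lower, with a median of −0.15 that was −0.04 after recentring and 0.03 without the factor. H2-K1 and H2-D1, the class I heavy chains, differed by −0.13 ± 0.22 and −0.15 ± 0.18. The 8 genes of MHC class II presentation had 3 lower and a median of 0.04, and H2-Aa spread over 11.65 to 14.92 in A and 11.92 to 13.54 in DZ. The 20 reference genes had 10 lower and 10 higher, as the normalization centres them. None of these lists held a gene at an unadjusted p under 0.05 by limma, or one after adjustment.

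Genes that respond to DNA damage and the bone-resorption axis, chosen because doxorubicin and zoledronic acid act there, showed no difference beyond the spread between tumours. Of 17 p53, DNA damage and cell death genes, 12 were lower in A (against 73.8%), with a median of −0.06 that turned to 0.05 after recentring. Cdkn1a, the p53 target p21, was 11.52 to 11.77 in A and 11.49 to 11.90 in DZ (difference −0.03 ± 0.13, limma adjusted p = 0.995), and Abcb1a, a drug efflux pump that exports doxorubicin, differed by −0.30 ± 0.25. Of 10 genes of the osteoclast and RANK axis, 8 were lower, with a median of −0.09 that turned to 0.02 after recentring. Tnfrsf11a, which encodes RANK, differed by −0.30 ± 0.34 and its ligand Tnfsf11 by −0.26 ± 0.23. The 5 genes of cell division had a median of −0.06, which was 0.05 after recentring.

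No gene above background was higher in A at an unadjusted p under 0.05 by limma. The 8 with the smallest p were Sap130, Nfatc3, Clec7a, Mr1, G6pdx, Tnfrsf4, Map2k4 and Tirap, with differences of 0.15 to 0.43 and adjusted p-values of 0.995. Clec7a, the β-glucan receptor dectin-1 of myeloid cells, was 10.08, 10.38, 10.37, 10.62 and 11.40 in A and 9.22 to 10.79 in DZ with a median of 10.23 (difference 0.43 ± 0.32). A5 was the highest of the 11 tumours and the other A tumours lay inside the DZ range. Tnfrsf4, the costimulatory receptor OX40, was 6.20, 6.72, 6.67, 6.69 and 6.79 in A and 5.81 to 6.86 in DZ (difference 0.24 ± 0.20). Sap130 and G6pdx belong to the reference genes.

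At or below background, the 4 genes without overlap between the groups were Klra3, Itga2b, Jam3 and Il21, all lower in A (2.92% of 137 genes; 0 were higher). Klra3, a receptor of NK cells from the Ly49 family, whose members are so alike that probe signal may be shared, had 9, 10, 6, 6 and 14 counts in A1 to A5 and 9 to 20 counts in DZ before the factor, so that the counts of the groups overlapped. On the deposited scale it stood at 2.82 to 3.59 in A and 3.62 to 4.47 in DZ (difference −0.91 ± 0.19, limma adjusted p = 0.347, exact permutation p = 0.00216, the smallest that 462 splits allow). No tumour of either group was above background for it. Itga2b, the platelet integrin chain αIIb, differed by −0.76 ± 0.18 (adjusted p = 0.347), with 0 of 5 A and 2 of 6 DZ tumours above background, and Jam3, a junctional adhesion molecule, by −0.82 ± 0.22 (adjusted p = 0.511), with 1 of 5 and 4 of 6.

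The median difference of the genes at or below background was close to that of the background itself. The background was 4.62 ± 0.23 in A and 4.87 ± 0.57 in DZ (log2, SD, difference −0.25, exact permutation p = 0.366) after the controls were multiplied by the factor. Of the 137 genes, 108 were lower in A (78.8%) and 29 higher (21.2%), with a median difference of −0.241, and their mean count before the factor was 16.9 ± 3.60 in A and 16.9 ± 1.88 in DZ (difference 0.0114 counts, exact permutation p = 0.994). With values raised to the background of their tumour, Klra3, Il21, Camp (a cathelicidin of neutrophil granules, −0.91 ± 0.26 before) and Blk (a B cell kinase, −0.59 ± 0.22 before) each stood at −0.25, the difference of the backgrounds, while Itga2b stood at −0.33 and Jam3 at −0.47. A gene under background in every tumour takes the difference of the backgrounds by construction, so the −0.25 tells nothing more about these 4 genes. Il25, the cytokine IL-17E, was the 1 gene higher in A at an unadjusted p under 0.05 (difference 0.38 ± 0.17, limma adjusted p = 0.995), and no tumour was above background for it.

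Beside placebo, the A and DZ tumours were set in 1 limma fit of all 23 tumours. No gene passed an adjusted p of 0.05 for A minus P (0%, smallest 0.9991) or for DZ minus P (0%, smallest 0.9997), and at an unadjusted p under 0.05 limma counted 8 lower genes and 1 higher gene in A (1.04% and 0.13%) and 0 lower and 12 higher genes in DZ (0% and 1.56%). Both differences use the same 6 placebo tumours, so they are given only side by side. Trem1 stood at −0.70 in A and −0.08 in DZ relative to P, and Chil3 at −0.91 and 0.05. Tie1 stood at −0.21 in A and 0.52 in DZ, Cd34 at −0.08 and 0.49, Tnfrsf9 at −0.10 and 0.46, and Tgfb2 at −0.00 and 0.44. The first 2 genes thus lay farther from placebo in A and the other 4 farther from it in DZ, without a test of that difference. Thbs1, at −0.62 and 0.28, and Il6, at −0.53 and 0.25, lay on either side of placebo. The endothelial list had a median of −0.09 for A minus P and 0.32 for DZ minus P, and the IL-1 and NF-kB induced list −0.32 and −0.06.

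**Figure D4:**
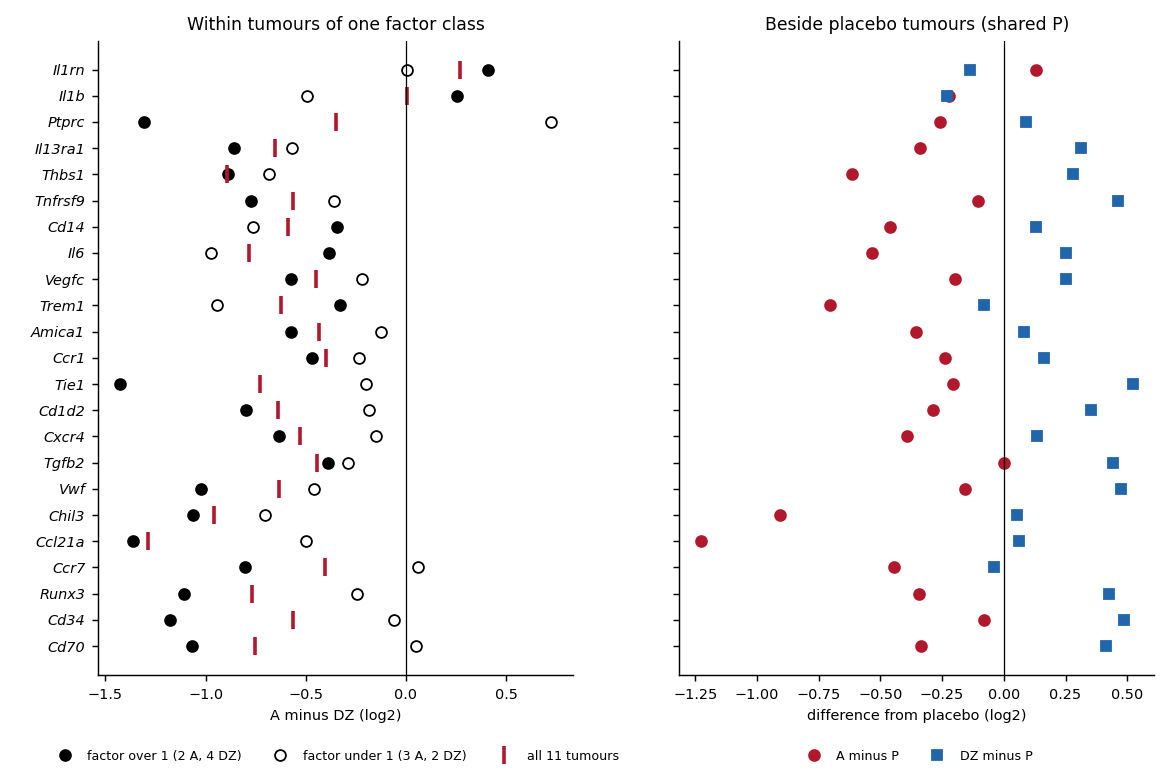
Left, A minus DZ (log2) for 20 of the 21 genes above background with an unadjusted p under 0.05 and for Ptprc, Il1b and Il1rn, within the tumours with a factor over 1 (filled), within those under 1 (open) and over all 11 (bar). Right, the same genes as A minus P (circles) and DZ minus P (squares), which share the placebo tumours. Il6 lies at −0.38 and −0.98 in the 2 classes, and Ptprc at −1.31 and 0.73.

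Tumours of 1 group differed from each other more than the groups did for many genes. The SD between tumours was larger in DZ for 413 of the 633 genes above background, with a median SD of 0.344 in A and 0.408 in DZ. The 5 genes with the widest spread were Dmbt1, a scavenger protein of epithelium, Cfd, the complement factor adipsin of fat cells, Cd163, a haemoglobin scavenger receptor of macrophages, Cxcl14 and Col1a1. Cfd was 9.39, 9.55, 8.11, 9.75 and 11.23 in A1 to A5, while in DZ it was 4.73 in DZ2 and 11.87 in DZ6 with a median of 9.67. DZ2 had the lowest value of the 11 tumours and DZ6 the highest not only for Cfd but also for Cd163 (3.06 and 9.74), Cxcl14 (4.13 and 9.54) and Col1a1 (7.83 and 13.08). The group differences of these genes, from −0.76 for Dmbt1 to 0.62 for Cfd, had standard errors of 0.75 to 1.37 (limma adjusted p = 0.995 each).

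**Figure D5:**
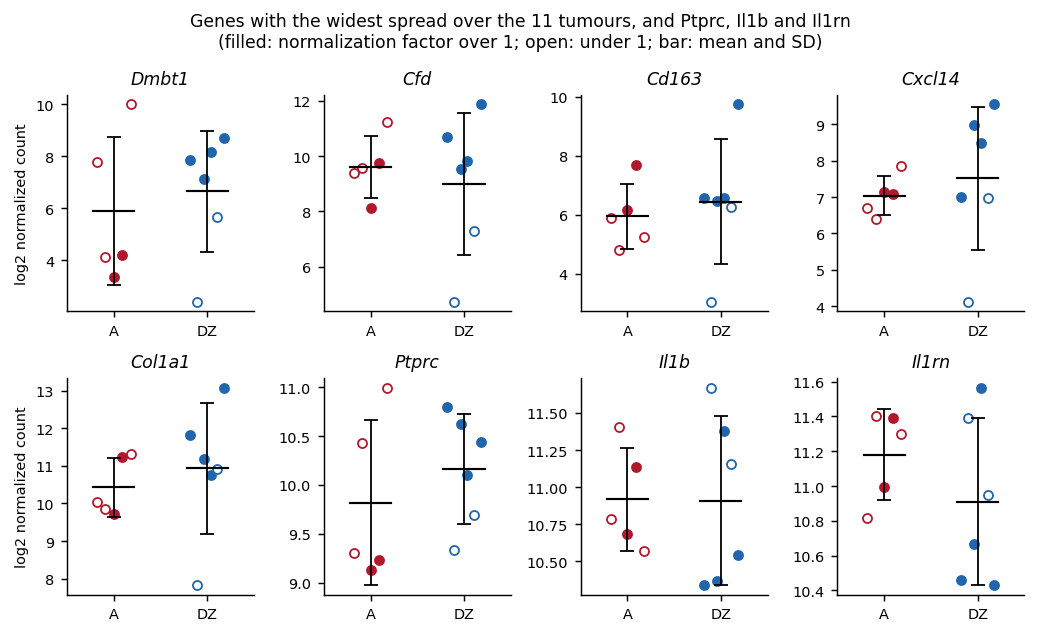
Level (log2 normalized count) of the 5 genes with the widest spread and of Ptprc, Il1b and Il1rn in each A and DZ tumour, with the mean and SD as bars and filled points for tumours with a factor over 1. DZ2 is the lowest point for Cfd, Cd163, Cxcl14 and Col1a1 and DZ6 the highest, and the A and DZ tumours overlap in all 8 panels.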

How the data were processed

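The deposited values are log2 normalized counts from the nCounter panCancer mouse immune panel (150 ng RNA per tumour), which the authors made with nSolver and Advanced Analysis. Whether background was subtracted is not given in the sources used here. Dividing out the factor gave whole counts (within 0.05) for 100% of values, apart from log2 values of exactly 0 (3 in A and DZ), which were kept. Controls were deposited without the factor and were multiplied by it to set the background.

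Differences, A minus DZ, were fitted on the 11 tumours with limma 3.58.1 in R 4.3.3 (two-sided, Benjamini-Hochberg over 770 genes). The model was tested on simulated data of these group sizes. Exact permutation tests used all 462 splits. Of the symbols, 754 matched RefSeq, 8 matched through synonyms and 8 did not. Figures were drawn with matplotlib 3.10.9.

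Named were the 20 genes above background with the smallest p, the 8 higher in A, the 6 at or below background, the IL-1 ligands and receptors with Ptprc, and per list the 3 with the smallest p and the most abundant member, and the 5 with the widest spread. Some results that meet this rule are not reported here. The members, the 23 lists and the 19 marker sets were chosen with earlier results of these data known. Replicate numbers did not pair the tumours: 1 of 5 pairs had a correlation over 0.1. Alternatives were other scalings, treatments of low values, fits and tumours left out.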

Additional observations from a re-analysis of the deposited data

Results flagged for a closer look

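In 98 groups of 5 or 6 tumours (the A and DZ values of 46 genes and of per-tumour measures), 3 had a tumour far from the others, and chance gives about 1 in 20. Trem1 was 4.87 in A5, against 5.62 to 5.86 in the other A tumours. Tnfrsf4 was 6.20 in A1, against 6.67 to 6.79 in the other A tumours. The number of genes above background was 588 in DZ4, against 633 to 655 in the other DZ tumours.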

How the results depend on the processing

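The count of genes at an adjusted p under 0.05 was 0 under every alternative run. The count at an unadjusted p under 0.05, 33 in the reported fit, was 21 after recentring (19 lower in A), 20 after quantile normalization (13 lower, 65% against 97.0%), 20 with values raised to the background and 11 in counts without the factor (10 lower), the last chosen after seeing the data, as were the classes by factor. With the log2 factor as a covariate, also chosen later, it was 33. Leaving out 1 tumour gave 22 to 66. The replicate block gave 21, with a tumour that has no partner dropping out, and the numbers were not taken as pairs. The median difference over genes above background ran from −0.180 to −0.0544 with 1 tumour left out, and the difference in panel medians from −0.167 to −0.0646. The difference in the number of genes above background, 0.6, turned to −14.6 with the controls as listed (exact permutation p = 0.548) and ran from −8.8 to 4.6 with 1 tumour left out. Of 31 named genes at an unadjusted p under 0.05 and lower in A, 0 changed sign under any alternative fitted over both classes of tumours, but within the tumours with a factor under 1 Ccr7 turned to 0.058 and Cd70 to 0.051. Of all 154 named genes, 32 changed sign without the factor, 71 within the tumours with a factor under 1 and 23 within those with a factor over 1. Thbs1 kept an unadjusted p under 0.05 in all 23 alternatives with a test, and Il13ra1 and Il6 in 22. The 31 genes were picked by p and direction on these same tumours, so their kept signs and p-values are not independent evidence. With 5 and 6 tumours, a median standard error of 0.24 on the log2 scale limits what can be told apart, and genes near background rest on few counts.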

Other observations

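The other lists are given here with their medians before and after recentring, and each had 0 genes past an adjusted p of 0.05 by limma. Of 17 complement genes above background, 14 were lower in A, with a median of −0.23 (−0.12 after recentring) and 0 at an unadjusted p under 0.05, and the opsonin precursor C3 differed by −0.61 ± 0.47. Of 15 TNF receptor family genes, 13 were lower, with a median of −0.16 (−0.05 after recentring), 2 of them, Tnfrsf9 and Cd70, at an unadjusted p under 0.05. Of 11 checkpoint genes, 10 were lower, with a median of −0.17 (−0.06 after recentring, 0.01 without the factor), and Cd274, which encodes PD-L1, differed by −0.09 ± 0.22.

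Of 16 myeloid lectins, scavenger and Fc receptors, 13 were lower, with a median of −0.12 (−0.01 after recentring, 0.04 after quantile normalization). Of 9 epithelial and tumour cell genes, 8 were lower, with a median of −0.16 (−0.05 after recentring, 0.02 without the factor). Of 5 adenosine pathway genes, 4 were lower, with a median of −0.06 (0.05 after recentring), among them Nt5e, the ecto-enzyme CD73, at −0.41 ± 0.24. Of the genes that the study chose on these A and DZ tumours, only those shown under its leading GO terms were listed here, and this partial list of 24 genes had 15 members above background, all lower in A, with a median of −0.57 (−0.46 after recentring), which is not independent evidence of its direction.

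Of the marker sets, cytotoxic cells had 3 of 6 genes above background lower in A (median −0.00, 0.11 after recentring), NK cells 2 of 3 (−0.09, 0.02), Treg cells 3 of 3 (−0.17, −0.06), dendritic cells 2 of 4 (−0.05, 0.06), mature dendritic cells 3 of 4 (−0.11, −0.00) and mast cells 3 of 4 (−0.05, 0.06). Fibroblasts had 5 of 5 lower (−0.34, −0.23), carcinoma epithelium 4 of 5 (−0.16, −0.05), platelets 2 of 2 (−0.52, −0.41) and adipocytes 0 of 2 (0.44, 0.55). With a factor over 1, the mean level of the fibroblast markers was 8.62 and 9.34 in A against 9.32 to 10.36 in DZ. With a factor under 1 it was 9.03, 8.92 and 9.56 in A against 8.26 and 9.32 in DZ. Of 5 immature neutrophil granule genes, only Lcn2 lay above background. It was 9.81, 9.72, 9.78, 10.05 and 8.57 in A1 to A5 and 8.70 to 12.02 in DZ, and differed by −0.75 ± 0.63. DZ2 and DZ5, the DZ tumours with a factor under 1, were highest at 12.02 and 11.86. The DZ tumours with a factor over 1 ran from 8.70 to 11.01, a range that held A3 and A4, the A tumours of that class.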
